A study of Mus musculus with 14 samples.

Results

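The CC chemokines are small secreted proteins that attract leukocytes, and 10 of their genes were followed here in liver sinusoidal endothelial cells (LSECs) after an acute injury of the liver. The genes were Ccl2, Ccl7 and Ccl12, then Ccl3, Ccl4 and Ccl5, then Ccl6 and Ccl9, and finally Ccl24 and Ccl25. They were chosen by symbol, with earlier results of these data known, and make up 10 of the 54524 genes in the deposited count table. Counts of members called, set beside the share of all genes, are therefore a description and not a test. All 10 passed the filter on low counts. LSECs are the fenestrated endothelial cells that line the liver's capillaries. Male Balb/c mice, aged 10 to 12 weeks by the labels, received 1 intraperitoneal injection of CCl4 in mineral oil at 0.5 µL per g of body weight. The study's methods give a somewhat higher age range, and the labels were followed. CCl4 (carbon tetrachloride) is a solvent that hepatocytes convert into a toxic radical. Livers were taken after 1 day (2 samples), 3 days (4 samples) and 7 days (4 samples), and 4 healthy samples came from untreated mice of the same strain, sex and age, so the controls did not receive the oil. Cells were sorted without culture as CD32 positive and F4/80 negative, and per the study's methods also CD45 negative, before bulk RNA sequencing. The sort also took only cells without UV autofluorescence, a signal of the vitamin A stores of stellate cells, and without the dead-cell dye propidium iodide. The study left out a pair of day 1 samples for low RNA quality. Neither the labels nor the methods say whether animals were pooled, so the p-values measure the spread between these samples.

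Total counts per sample lay between 46401496 and 103912264, so that even the lowest count of a member in any sample, 79 for Ccl12, was well above the detection floor. The 11 LSEC markers were present in every sample, with summed levels of 17860 to 21240 counts per 1e+06 reads (CPM) in healthy LSECs and 10520 to 15800 CPM after injury. The samples also differed in the transcripts of other cells. The 12 markers of monocytes and neutrophils, summed, lay between 80.1 and 324 CPM in healthy LSECs. They stood at 7347 and 3238 CPM at day 1, at 5078, 2920, 236 and 176.5 CPM in day 3 replicates 1 to 4, and between 364 and 587 CPM at day 7. Of these 12 markers, 7 were called higher at day 1, 4 at day 3 and 2 at day 7, and none lower. Of all genes tested, 2.42%, 4.62% and 2.19% were called higher at these days. By their marker sums, day 3 replicates 1 and 2 stood apart from replicates 3 and 4, and results that rest on them are given with and without them. Over the 14 samples, 5 B cell markers summed to 22.3 to 168 CPM, 7 dendritic cell markers to 92.0 to 194 CPM and 4 cholangiocyte markers to 7.5 to 31.2 CPM. Of 11 immediate early genes, which dissociation of tissue induces, 1 was lower at day 1 and 1 at day 3, and their summed level was 18350 to 20010 CPM in healthy LSECs and 10170 to 15420 CPM after injury. In a bulk sample, fewer cells of a type and less RNA per cell cannot be told apart.

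All CC chemokines share a pair of adjacent cysteines near the start of the mature protein, and they act on leukocytes through G protein-coupled receptors. Ccl2, Ccl7 and Ccl12 are monocyte attractants and ligands of the receptor Ccr2. Ccl3, Ccl4 and Ccl5 attract monocytes, T cells and NK cells, and Ccl3 and Ccl5 bind Ccr1. Ccl6 and Ccl9 are rodent chemokines made mainly by myeloid cells and act on Ccr1. Ccl24 acts on eosinophils through Ccr3, and Ccl25, best known from thymus and small intestine, acts on Ccr9. In the injured liver, CC chemokines are known for the recruitment of monocytes from the blood, and Kupffer cells, stellate cells and LSECs are all known sources.

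Of the 10 genes, 8 lie on chromosome 11 (GRCm38, GENCODE vM21). Ccl2 (82035571 to 82037453), Ccl7 (82045712 to 82047525) and Ccl12 (82101845 to 82103400) are neighbours on the plus strand. Ccl5 (83525778 to 83530518), Ccl9 (83572919 to 83578636), Ccl6 (83587882 to 83593087), Ccl3 (83647844 to 83649355) and Ccl4 (83662584 to 83664683) form another group, in which Ccl4 alone is on the plus strand. Ccl24 lies on chromosome 5 (135569937 to 135573049, minus strand) and Ccl25 on chromosome 8 (4325210 to 4360020, plus strand). The stretch of coding sequence around the cysteine pair, from the GENCODE transcripts, is shown for the 5 genes called across the time course, to show how the family resemblance and the differences sit side by side. The cysteine codons are in capitals, and the first of them is codon 34 in Ccl2, 33 in Ccl7, 34 in Ccl4, 50 in Ccl6 and 57 in Ccl9.
Ccl2: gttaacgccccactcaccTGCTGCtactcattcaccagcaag
Ccl7: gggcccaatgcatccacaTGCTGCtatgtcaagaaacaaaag
Ccl4: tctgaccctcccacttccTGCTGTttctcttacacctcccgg
Ccl6: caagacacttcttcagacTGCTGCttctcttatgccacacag
Ccl9: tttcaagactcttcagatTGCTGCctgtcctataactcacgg

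Over the whole coding sequence, Ccl3 and Ccl4 were the most alike of all pairs of members (68.4% identical bases in a global alignment), followed by Ccl6 and Ccl9 (64.6%) and by Ccl7 and Ccl12 (63.5%). In spite of this likeness, no stretch of 100 bases in the transcripts of 9 members occurred in a transcript of another gene. Only Ccl25 shared any, 82 stretches (1.08% of its own), all with Elavl1, a gene on the opposite strand whose exons overlap those of Ccl25 by 204 bases. Whether counting used the strand is not given in the sources used here, so the counts of Ccl25 are uncertain. Ccl2 and Ccl6 also overlap a gene on the opposite strand, but in no exon base.

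In healthy LSECs all 10 genes were detected in all 4 samples. Levels of different genes were compared as CPM per kb of exon, with all annotated exons of a gene merged. This length need not be that of the transcript present. It was 7445 bases for Ccl25 and 3045 for Ccl9, against 537 for Ccl12, so their places depend on it. In CPM alone, the healthy mean of Ccl9 (16.2) was above that of Ccl12 (5.55). On the scale per kb, Ccl4 stood first at 164 ± 62.2 (SD, n = 4) and Ccl3 next at 127 ± 50.6. Ccl7 (63.6 ± 19.6), Ccl2 (63.0 ± 21.5), Ccl24 (40.7 ± 20.3), Ccl6 (40.4 ± 13.3), Ccl5 (23.2 ± 14.5) and Ccl12 (10.3 ± 4.25) followed, and from Ccl4 down to Ccl12 the ranges of neighbours in this order overlapped. Ccl9 (5.32 ± 0.98) lay below all samples of Ccl12, and Ccl25 (0.411 ± 0.32) below all samples of Ccl9. The order changed after injury. Ccl6 led at day 1 with 606 ± 372 CPM per kb (n = 2), without overlap with Ccl3, the next gene, at 275 ± 84.8. At day 3 Ccl4 (615 ± 493, n = 4) and Ccl2 (583 ± 511) stood first with wide and overlapping ranges. At day 7 Ccl6 (171 ± 41.2, n = 4), Ccl3 (136 ± 64.4) and Ccl4 (136 ± 30.3) led and overlapped. Per kb of exon Ccl25 stayed last in every group, whereas in CPM its day 7 mean (5.84) was above that of Ccl12 (2.21).

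**Figure D1:**
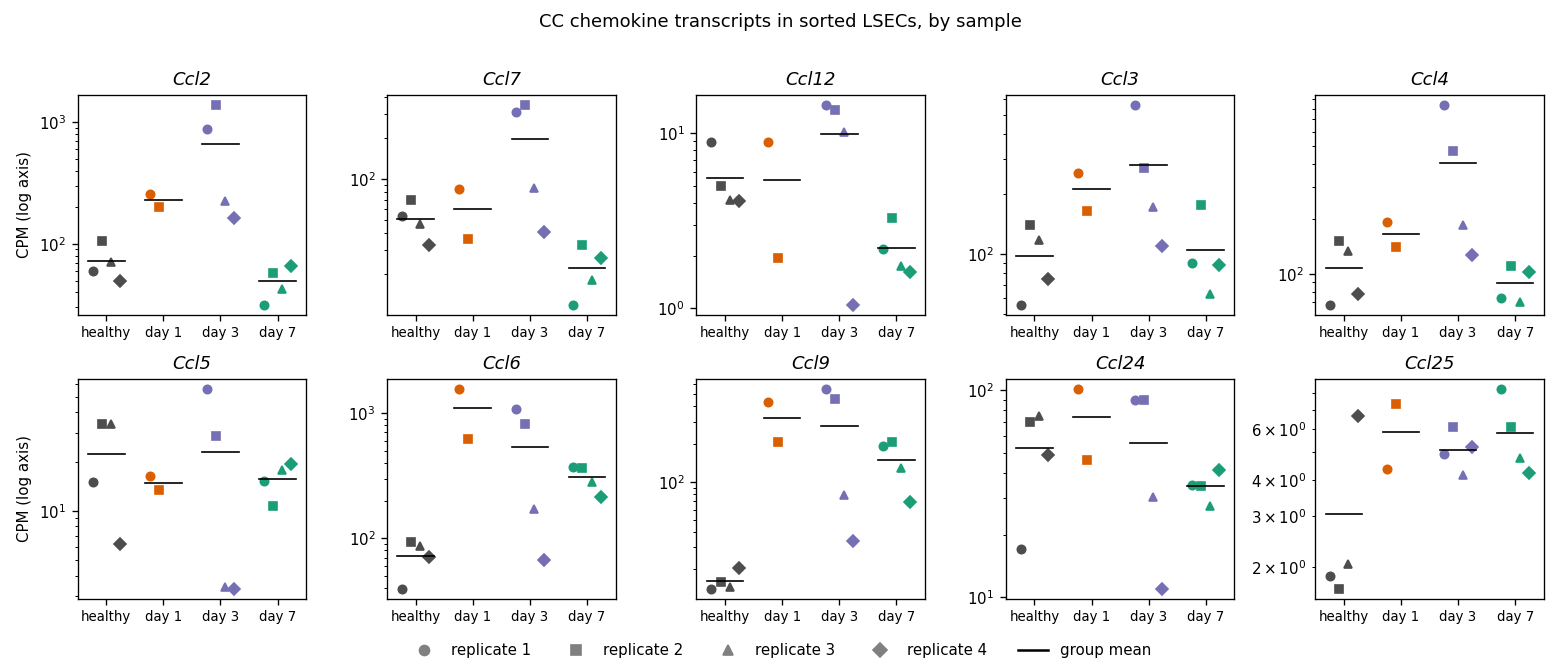
Level of each CC chemokine in each of the 14 samples (CPM on a log axis, with its own range in each panel); symbols mark the replicate number and lines the group mean. The 2 highest day 3 samples of Ccl2, Ccl7, Ccl6 and Ccl9 are replicates 1 and 2, and Ccl9 was above the healthy range in every sample after injury.

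The question of the first comparison was which chemokine transcripts had changed 1 day after the injection. Ccl6 and Ccl9, ligands of Ccr1, rose at day 1, by 3.91 and 4.31 on the log2 scale. Which cells of the sorted samples held these transcripts was not tested. In healthy LSECs Ccl6 was at 39.7, 93.2, 86.4 and 70.9 CPM in replicates 1 to 4, and at day 1 it was at 1559 and 615 CPM. Its log2 fold change had a standard error (SE) of 0.78 and an adjusted p of 0.0119 (edgeR's quasi-likelihood test, adjusted over all 26626 genes tested). Ccl9 went from 14.1, 15.9, 14.4 and 20.6 CPM to 436 and 209 CPM (SE 0.81, adjusted p = 0.00892). Both day 1 samples lay far above all healthy samples for both genes, and day 1 replicate 1, which had the higher monocyte and neutrophil markers, was also the higher of the pair for both.

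These were 2 of the 10 members called at day 1, both higher, where 4.06% of all genes tested were called and 2.42% were called higher. Ccl2 was at 256 and 202 CPM at day 1 against 59.8, 106, 71.5 and 49.6 CPM in healthy LSECs. Ccl3 was at 257 and 165 CPM against 55.5, 140, 117 and 75.0 CPM. For both genes the 2 day 1 samples lay above all healthy samples, but neither passed the test, with log2 fold changes of 1.68 (SE 0.64, adjusted p = 0.173) for Ccl2 and 1.12 (0.56, adjusted p = 0.321) for Ccl3. In all, 4 members had no overlap in this direction, against 20.0% of all genes tested. The other 6 members overlapped between the groups, with log2 fold changes between -0.58 for Ccl5 and 0.93 for Ccl25. The median over the members was 0.78, against -0.03 over all genes.

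The day 1 calls rested on replicate 1. Without day 1 replicate 1, Ccl6 was higher by 3.05 (adjusted p = 0.206) and Ccl9 by 3.65 (adjusted p = 0.12), and no member was called. Without replicate 2 both calls were kept. Ccl2 was called at day 1 when only the 2 groups were fitted (1.64, adjusted p = 0.0228) and without day 3 replicates 1 and 2 (1.65, adjusted p = 0.00938). The fit without the day 3 samples was chosen after seeing the data. Both fits held the same day 1 and healthy samples as the main fit (1.68, adjusted p = 0.173). The call of Ccl2 thus depended on which other samples were fitted.

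At day 3, 4 of the 10 members were higher than in healthy LSECs: Ccl2, Ccl4, Ccl6 and Ccl9. No member was lower. Of all genes tested, 7.19% were called and 4.62% were called higher. For 2 members, Ccl2 and Ccl9, all samples lay above the healthy range, against 7.53% of all genes. The median log2 fold change of the members was 1.72, against 0.18 over all genes.

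Among the Ccr2 ligands, Ccl2 reached its highest levels at day 3, with 881, 1387, 224 and 163 CPM in replicates 1 to 4. All 4 samples lay above the 4 healthy samples, and replicates 1 and 2 were well above the other two. The log2 fold change was 3.21 (SE 0.59, adjusted p = 0.00714), and the call was kept when any 1 of the 14 samples was left out. Ccl7 followed the same order of samples, with 310, 350, 86.3 and 41.0 CPM at day 3 against 53.4, 70.7, 46.8 and 32.8 CPM in healthy LSECs. Replicate 4 of day 3 lay within the healthy range, and Ccl7 just missed the threshold (log2 fold change 1.95, SE 0.58, adjusted p = 0.0599; without day 3 replicate 4, 2.18 and adjusted p = 0.0125; with DESeq2, adjusted p = 0.00655). Ccl12, a mouse relative of Ccl2, was at 14.5, 13.7 and 10.2 CPM in day 3 replicates 1 to 3 but at 1.05 CPM in replicate 4, against 8.92, 4.99, 4.15 and 4.13 CPM in healthy LSECs. It spanned the healthy range from below to above, and its log2 fold change was 0.83 with a 95% interval from -0.53 to 2.19.

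Of Ccl3, Ccl4 and Ccl5, the attractants of monocytes and lymphocytes, Ccl4 was at 840, 469, 186 and 128 CPM in day 3 replicates 1 to 4, against 68.1, 151, 134.5 and 78.3 CPM in healthy LSECs. Replicates 1 to 3 lay above all healthy samples and replicate 4 among them. The log2 fold change was 1.91 (SE 0.49, adjusted p = 0.0332). This call was close to the threshold and was kept in 4 of the 14 fits that left out 1 sample. It was lost without any 1 healthy or day 1 sample, day 3 replicate 1 or 2, or day 7 replicate 3 or 4, with adjusted p-values from 0.0507 up to 0.108 (without day 3 replicate 1, log2 fold change 1.17). Ccl3, the closest relative of Ccl4 by coding sequence, showed the same order at 562, 271, 172 and 109 CPM and was not called (log2 fold change 1.52, SE 0.48, adjusted p = 0.0735; without day 3 replicate 4, 1.68 and adjusted p = 0.0304; with DESeq2, adjusted p = 0.0174). Ccl5, which T and NK cells make in large amounts, was spread widely within day 3. It was at 55.7, 28.8, 3.39 and 3.33 CPM at day 3, a range of 16.7-fold, against 14.98, 33.7, 34.1 and 6.23 CPM in healthy LSECs. Its log2 fold change was 0.04 with an interval from -1.60 to 1.67. The summed T and NK cell markers in the same day 3 samples were at 249, 150.5, 25.01 and 9.68 CPM, and in healthy LSECs at 58.1, 155.5, 159 and 29.5 CPM.

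Ccl6 was at 1083, 814, 172 and 67.5 CPM in day 3 replicates 1 to 4, and Ccl9 at 553, 462, 78.6 and 33.6 CPM. For Ccl9 all 4 samples lay above the healthy range, whereas Ccl6 in replicate 4 lay within it. The log2 fold changes were 2.88 for Ccl6 (SE 0.69, adjusted p = 0.0237) and 4.12 for Ccl9 (0.75, adjusted p = 0.00707). The call of Ccl9 was kept in all 14 fits that left out 1 sample. That of Ccl6 was lost without any 1 healthy sample or without day 3 replicate 1 or 2, with adjusted p-values of 0.0543 to 0.075.

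**Figure D2:**
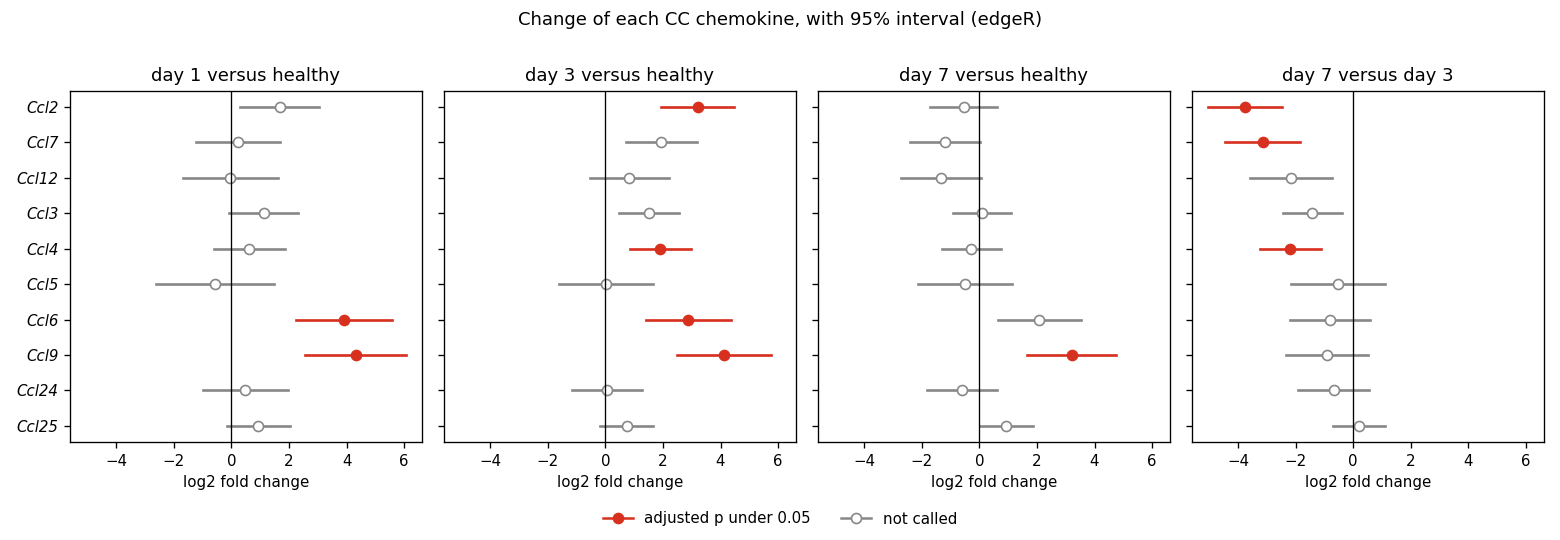
Log2 fold change of each CC chemokine (point) with its 95% interval (line) from edgeR for 4 comparisons; filled red points passed an adjusted p of 0.05. Ccl6 and Ccl9 passed at day 1, Ccl2, Ccl4, Ccl6 and Ccl9 at day 3 and Ccl9 at day 7, while Ccl2, Ccl7 and Ccl4 were lower at day 7 than at day 3.

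The split of the day 3 samples ran through most members. Replicates 1 and 2, the samples with high monocyte and neutrophil markers, were above replicates 3 and 4 for 9 of the 10 members, the exception being Ccl25. The same comparison was therefore made without both of them, an alternative chosen after seeing the data. Ccl2 (log2 fold change 1.41, adjusted p = 0.0221) and Ccl9 (1.75, adjusted p = 0.036) remained called higher. Ccl6 (0.69, adjusted p = 0.361) and Ccl4 (0.51, adjusted p = 0.348) did not, and Ccl7 stood at 0.30 (adjusted p = 0.722). Ccl5 was called lower (-2.75, adjusted p = 0.0201). This fit kept only replicates 3 and 4 at day 3. For the 9 members that were highest in the samples left out, the selection itself lowered the fold changes. The lost calls and the call of Ccl5 therefore cannot be read as results of their own. The same limit holds for the later fits without both samples, for genes that were highest in them. In day 3 replicates 3 and 4 the monocyte and neutrophil marker sums lay within the healthy range, and Ccl2 was above every healthy sample. The stellate cell marker sums of these samples were above every healthy sample too. Other cell types moved with the comparison too. The 10 stellate cell markers summed to 1635, 1458, 666 and 2004 CPM in day 3 replicates 1 to 4, against 139 to 257 CPM in healthy LSECs, and 8 of the 10 were called higher. At day 7 they summed to 374 to 5751 CPM and 9 of 10 were called higher. The 11 Kupffer cell and macrophage markers summed to 2425, 2228, 966 and 966 CPM at day 3, against 352 to 2239 CPM in healthy LSECs. The gates on F4/80, CD45 and UV autofluorescence were set to remove macrophages, leukocytes and stellate cells. The part of any such cells in the levels of the members was not tested.

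**Figure D3:**
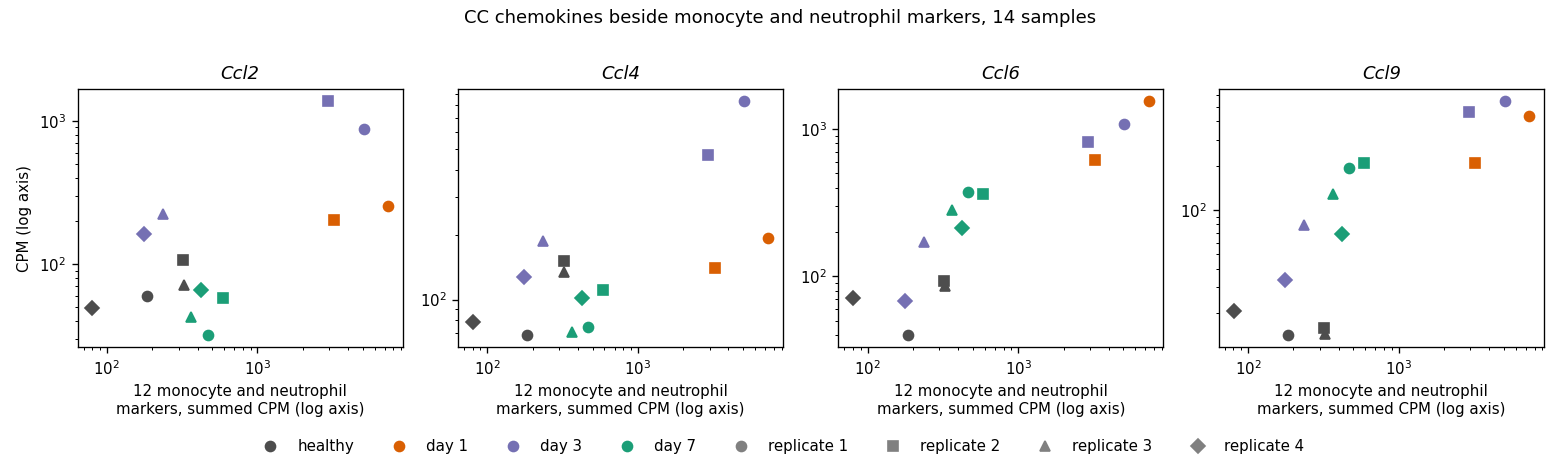
Level of Ccl2, Ccl4, Ccl6 and Ccl9 in each of the 14 samples (CPM, log axis) against the summed CPM of 12 monocyte and neutrophil markers (log axis); colours mark the groups and symbols the replicates. Day 3 replicates 3 and 4 have marker sums of 236 and 176.5 CPM, within the healthy range, and Ccl2 levels of 224 and 163 CPM, above all healthy samples. Their stellate cell marker sums, not shown in the figure, were 666 and 2004 CPM and also above all healthy samples. Ccl6 was highest in the 4 samples with the highest monocyte and neutrophil marker sums.

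By day 7 Ccl2, Ccl7 and Ccl4 had come down from their day 3 levels. Ccl2 was at 31.7, 58.0, 42.3 and 65.4 CPM, Ccl7 at 12.0, 32.9, 18.1 and 26.4 CPM and Ccl4 at 74.4, 111, 70.8 and 102 CPM. All 4 samples of each of these genes lay below all day 3 samples. Compared with day 3, Ccl2 fell by 3.75 on the log2 scale (SE 0.60, adjusted p = 0.0108), Ccl7 by 3.14 (0.61, adjusted p = 0.0232) and Ccl4 by 2.18 (0.50, adjusted p = 0.0436). These were 3 of 10 members called, all lower, where 1.77% of all genes tested were called and 1.36% were called lower. Groups without overlap in this direction occurred for 4.15% of all genes, and the median of the members was -1.17 against -0.10 over all genes. Without the day 3 samples high in monocyte and neutrophil markers, the fall of Ccl2 was 1.93 (adjusted p = 0.0126) and those of Ccl7 (-1.46, adjusted p = 0.117) and Ccl4 (-0.76, adjusted p = 0.249) were not called. The call of Ccl2 was also lost without day 7 replicate 3 or 4, with an adjusted p of up to 0.0724. That of Ccl7 was lost without day 1 replicate 1, day 3 replicate 1 or 2, or any 1 day 7 sample (adjusted p up to 0.126), and that of Ccl4 was kept in 1 of 14 such fits, the one without day 3 replicate 4 (adjusted p up to 0.191 in the others). Fitted on the 2 groups alone, none of the 3 passed. Ccl3 (-1.42, adjusted p = 0.156) and Ccl12 (-2.15, adjusted p = 0.124) lay in the same direction and were not called.

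Ccl9 remained above healthy at day 7, the only member called at that time, where 3.18% of all genes tested were called and 2.19% were called higher. It was at 194, 209, 128 and 68.8 CPM, all above the highest healthy sample of 20.6 CPM, with a log2 fold change of 3.21 (SE 0.72, adjusted p = 0.0315). This call was lost without healthy replicate 1, 2 or 3 or day 7 replicate 2 or 3 (log2 fold change 3.01 to 3.31, adjusted p 0.0558 to 0.1). Ccl6 was at 373, 361, 283 and 214 CPM, and its lowest day 7 sample was above the highest healthy sample of 93.2 CPM. Its log2 fold change of 2.08 (SE 0.67, adjusted p = 0.099) did not pass, and it did with DESeq2 (adjusted p = 0.0137) and without day 3 replicate 4 (adjusted p = 0.0263). Monocyte and neutrophil markers at day 7, at 364 to 587 CPM in sum, were also above the healthy range, and their part in the levels of Ccl6 and Ccl9 was not tested.

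None of the Ccr2 ligands passed the edgeR test over all 14 samples against healthy at day 7. Ccl12 was at 2.19, 3.30, 1.74 and 1.62 CPM, below all healthy samples (log2 fold change -1.32, SE 0.64, adjusted p = 0.255). Ccl7 had a log2 fold change of -1.19 (0.57, adjusted p = 0.249) and Ccl2 of -0.54 (interval -1.70 to 0.62). With only the 2 groups fitted, Ccl12 (adjusted p = 0.041) and Ccl7 (adjusted p = 0.0459) were called lower. Samples without overlap occurred for 2 members in the upward direction, against 8.72% of all genes tested, and for 1 in the downward direction, against 12.1%. The median of the members was -0.39, against 0.02 over all genes.

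Day 3 was also compared with day 1 directly. No member passed (edgeR, where 2.54% of all genes were called), 2 had an unadjusted p under 0.05 (Ccl2 and Ccl7), DESeq2 called none and limma voom with quality weights called Ccl2, Ccl4 and Ccl7. Ccl2 differed by 1.54 on the log2 scale (interval 0.01 to 3.06) and Ccl7 by 1.71 (0.10 to 3.32), both higher at day 3. The day 3 samples high in monocyte and neutrophil markers, a set chosen after seeing the data, were also the highest of day 3 in Ccl6 and Ccl9. Without them both genes were called lower at day 3 than at day 1. Both day 1 samples, with marker sums of 7347 and 3238 CPM, were kept in that fit. It therefore cannot show a change with time, because the selection itself removed the high day 3 values. Between day 7 and day 1 only Ccl2 was called, lower by 2.22 at day 7 (log2 fold change -2.22, SE 0.63, adjusted p = 0.0482), where 8.04% of all genes were called and 4.40% were called lower. That call was kept in 4 of 14 fits without 1 sample and was lost without healthy replicate 1, 2 or 3, day 3 replicate 1, or any 1 of the day 1 and day 7 samples, with an adjusted p of up to 0.308. Between day 7 and day 1, 3 members had an unadjusted p under 0.05 in edgeR (Ccl2, Ccl6 and Ccl7). Ccl4, Ccl6, Ccl7, Ccl9 and Ccl24 were not called, though all their day 7 samples also lay below both day 1 samples. The share of all genes with such a separation is not given here. In one test of any difference among the 4 groups, 5 members were called, namely Ccl2 (adjusted p = 0.00261), Ccl9 (0.013), Ccl7 (0.014), Ccl4 (0.0223) and Ccl6 (0.0227), against 12.0% of all genes tested.

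Ccl24, the eosinophil chemokine, was not called by edgeR in any comparison. All its day 7 samples lay below both day 1 samples (log2 fold change -1.09, adjusted p = 0.334, edgeR). It was at 17.1, 70.4, 74.8 and 48.6 CPM in healthy LSECs, at 101.5 and 46.2 CPM at day 1, at 90.0, 90.0, 30.4 and 11.01 CPM at day 3 and at 35.0, 34.3, 27.7 and 41.3 CPM at day 7. The day 7 samples were close together, between the lowest and the other healthy samples. For its log2 fold change against healthy, the 95% interval ran from -0.98 to 1.95 on day 1. The day 3 interval was -1.15 to 1.29, and that of day 7 was -1.83 to 0.61, so changes of these sizes are not shown to be absent.

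Ccl25 had the lowest level per kb of exon in every group. In healthy LSECs it was at 1.86, 1.68, 2.04 and 6.66 CPM, with replicate 4 apart from the others, and after injury all 10 samples lay between 4.15 and 8.28 CPM. Healthy replicate 4 was also the sample with the most hepatocyte transcripts among the healthy ones, with 8 markers summing to 5977 CPM against 142 to 275 CPM in the other healthy samples. With all samples, the log2 fold changes of Ccl25 were 0.93, 0.74 and 0.93 at days 1, 3 and 7 (adjusted p = 0.377, 0.346 and 0.232). Without healthy replicate 4 they were 1.63, 1.34 and 1.69 and all passed (adjusted p = 0.0312, 0.0357 and 0.0197). The hepatocyte markers summed to 22.1 and 96.7 CPM at day 1, below all healthy samples, and Ccl25 was at 4.35 and 7.34 CPM there.

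Several pairs of members varied together across the 14 samples. The correlation of log2 CPM (Pearson's r, as a description over samples that share group and library) was highest for Ccl6 and Ccl9, at 0.96, and was 0.95 for the deviations from the group means. It was 0.93 for Ccl3 with Ccl4 and for Ccl2 with Ccl4, and 0.92 for Ccl2 with Ccl7. The promoters of Ccl6 and Ccl9 are shown because this pair moved together most closely. RefSeq promoter sequences (GRCm38.p6) were at hand for 5 of the members, and the 250 bases before the start site are printed 5′ to 3′, with motif matches in capitals. That of Ccl9 is chr11:83578637-83578886 and that of Ccl6 chr11:83593088-83593337, both on the minus strand.
Ccl9: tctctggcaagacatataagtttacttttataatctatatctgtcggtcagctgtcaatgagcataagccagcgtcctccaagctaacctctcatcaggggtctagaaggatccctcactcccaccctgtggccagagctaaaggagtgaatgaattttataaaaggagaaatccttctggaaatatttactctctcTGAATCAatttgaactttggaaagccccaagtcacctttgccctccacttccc
Ccl6: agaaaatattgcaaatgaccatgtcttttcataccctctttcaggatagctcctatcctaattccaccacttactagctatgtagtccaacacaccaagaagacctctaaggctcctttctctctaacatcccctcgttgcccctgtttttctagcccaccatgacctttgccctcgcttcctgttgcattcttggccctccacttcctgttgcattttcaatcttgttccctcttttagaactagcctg

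Motifs were searched on both strands of the 300 bases from 250 before to 50 after the start. They were TGANTCA (a loose form of the AP-1 letters, with any middle base), GGGA and CC with 4 bases between them (NF-kB), TTGCNNAA (C/EBP), TTCNNNGAA (STAT) and GAGGAA (PU.1). Ccl9 held 1 match, to TGANTCA, starting 53 bases before the start site, and 7.81% of all 32851 RefSeq promoters hold these letters. It reads TGAATCA, so it matched only through the free middle base, and binding by AP-1 was not tested. Ccl6 held none of the 5, which says only that these letters are not in this window. Among all promoters, 20.7% held the NF-kB letters, 10.8% TTGCNNAA, 8.30% TTCNNNGAA and 28.3% GAGGAA.

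For each member, the 2 protein-coding genes outside the list with the most similar pattern were taken from 12930 genes, again by Pearson's r of log2 CPM over the 14 samples. A similar pattern over samples does not show which cells held a transcript. Ccl5 was closest to Nkg7 (0.94) and to Ms4a4b (0.94). Ccl24 was closest to Treml4 (0.96) and Cd300e (0.94). Ccl25 was closest to Hp (0.89) and Itih3 (0.87). Ccl6 went with Nfil3 and Sirpb1a (0.96 each), Ccl9 with Gda (0.97) and Edn1 (0.94), and Ccl3 with Zbp1 (0.91) and Ly6c2 (0.90). Ccl2 went with Eef1d (0.93) and Atp5d (0.92), Ccl4 with Eef1d (0.94) and Ifi27l2a (0.93), Ccl7 with Mycbp (0.94) and Chchd6 (0.92), and Ccl12 with Tsn (0.92) and Mrpl45 (0.91).

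The CC chemokine receptors and scavengers, 14 genes, were measured in the same samples. Of the receptors of myeloid cells, Ccr1 was called higher at days 1 and 3 and Ccr2 at day 3. Of the scavengers, Ackr4 was called lower at days 1 and 3 and Ackr1 at day 1. Ccr2 was not called in edgeR's test of any difference among the 4 groups (adjusted p = 0.0796). Ackr1 was not called at day 3 (226 to 564 CPM, overlapping healthy) or at day 7 (201 to 357 CPM, below all healthy samples). Ackr2 was at 17.8 to 23.0 CPM in healthy LSECs, 15.5 to 16.6 CPM at day 1, 9.71 to 19.4 CPM at day 3 and 11.1 to 15.4 CPM at day 7. Its day 1 and day 7 samples lay below all healthy ones, and it was not called (edgeR, any difference among the 4 groups, adjusted p = 0.238). At day 1, 1 of the 14 was called higher and 2 lower, at day 3, 2 higher and 1 lower, and at day 7 none (edgeR). The shares of all genes tested that were called were 4.06%, 7.19% and 3.18%. At day 7, 4 of the 14 had an unadjusted p under 0.05 in edgeR, DESeq2 called 2 and limma voom 3. Ccr1, the receptor of Ccl6 and Ccl9, was at 5.42, 8.83, 8.11 and 3.16 CPM in healthy LSECs, at 169 and 82.9 CPM at day 1 and at 112, 56.7, 14.7 and 9.48 CPM at day 3. Its log2 fold change was 4.30 at day 1 (SE 0.79, adjusted p = 0.0081) and 2.92 at day 3 (0.70, adjusted p = 0.0238). All samples of both days lay above all healthy samples, with day 3 replicates 3 and 4 closest to them. Without day 1 replicate 1 the day 1 call was lost (adjusted p = 0.106), and without day 3 replicates 1 and 2 the day 3 log2 fold change was 0.90 (adjusted p = 0.271). The day 3 call was also lost without any 1 healthy sample or without day 3 replicate 1 alone (adjusted p up to 0.0734).

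Ccr2, the receptor of Ccl2, Ccl7 and Ccl12 on inflammatory monocytes, was at 9.06, 17.0, 20.9 and 5.06 CPM in healthy LSECs. At day 3 it was at 217, 78.1, 25.6 and 35.4 CPM (log2 fold change 2.78, SE 0.71, adjusted p = 0.0319). Every day 3 sample lay above the healthy range, as did the day 1 samples (76.7 and 53.0 CPM, log2 fold change 2.32, adjusted p = 0.125) and the day 7 samples (87.9, 106, 29.6 and 24.7 CPM, 2.26, adjusted p = 0.0902). The day 3 call was kept in 6 of 14 fits without 1 sample (adjusted p up to 0.108), being lost without any 1 healthy or day 1 sample or without day 3 replicate 1 or 2, and without both of these day 3 samples the log2 fold change was 1.21 (adjusted p = 0.233). Ccr3, the eosinophil receptor for Ccl24, and Ccr9, the receptor for Ccl25, were not called at any time against healthy. Ccr3 ranged from 3.65 to 35.0 CPM over the 14 samples, with overlap between healthy and each other group. Ccr9 stood at 33.8 and 30.0 CPM at day 1, against 2.07 to 11.9 CPM in healthy LSECs, and missed the threshold (log2 fold change 2.13, adjusted p = 0.207).

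Ackr4, a scavenger that takes up Ccl19, Ccl21 and Ccl25 without signalling, fell at days 1 and 3. It was at 39.9, 71.5, 73.8 and 55.1 CPM in healthy LSECs and at 1.196 and 1.90 CPM at day 1, a log2 fold change of -5.27 (SE 0.45, adjusted p = 4.45e-05). At day 3 it was at 12.5, 8.89, 16.5 and 14.98 CPM (-2.19, 0.28, adjusted p = 0.00148) and at day 7 at 38.3, 19.9, 34.6 and 34.1 CPM (-0.92, 0.27, adjusted p = 0.082). The groups followed each other without overlap from day 1 to day 3 to day 7, and all injured samples lay below all healthy ones. From day 1 to day 3 Ackr4 was higher by 3.09 (adjusted p = 0.00274), a call lost without day 1 replicate 1 (adjusted p = 0.0985). From day 3 to day 7 it was higher by 1.26 (adjusted p = 0.0376), a call kept only in the 3 of 14 fits that left out healthy replicate 1, day 3 replicate 4 or day 7 replicate 2. Without both day 3 samples high in monocyte and neutrophil markers this rise was 1.06 and not called (adjusted p = 0.119). The calls against healthy at days 1 and 3 were kept in all 14 fits without 1 sample. Ackr1, a chemokine-binding receptor of venular endothelium, was also lower at day 1, at 156 and 144 CPM against 376.5 to 515.5 CPM (log2 fold change -1.61, SE 0.37, adjusted p = 0.0248). This call was lost without healthy replicate 1, 2 or 3 or either day 1 sample, with an adjusted p of up to 0.231.

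**Figure D4:**
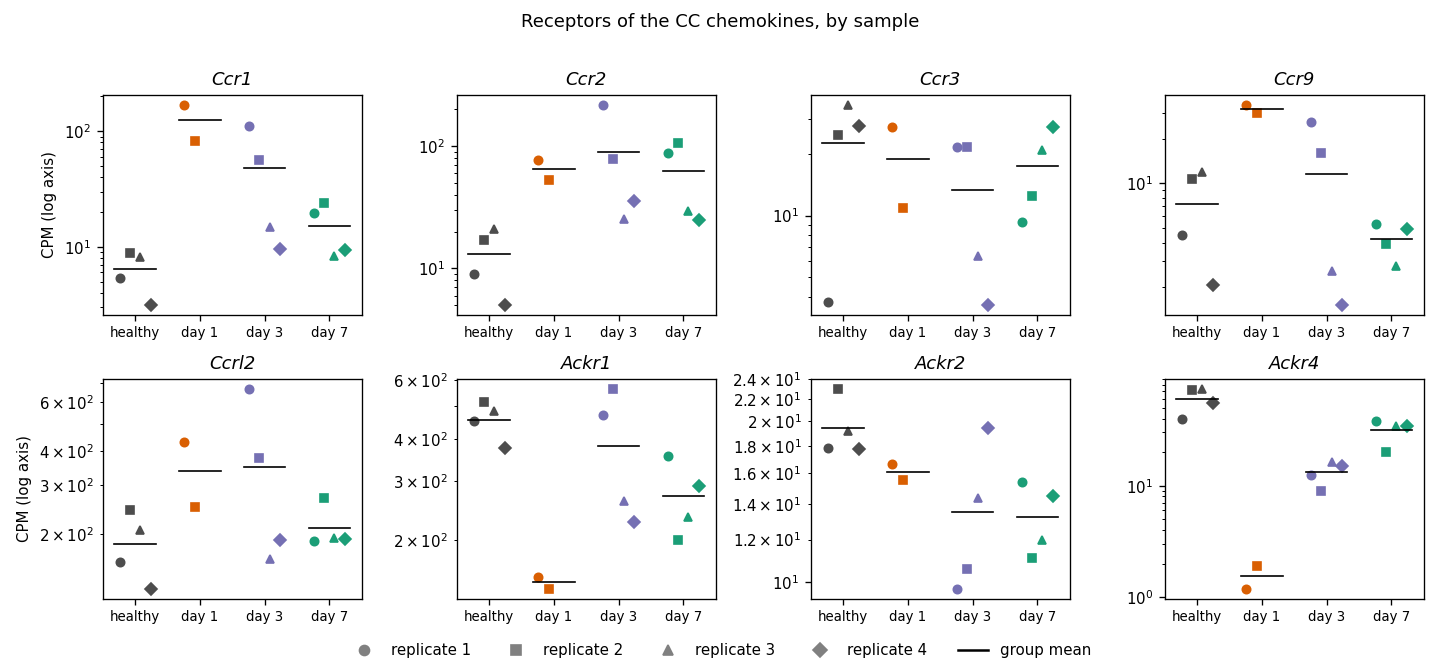
Level of 8 CC chemokine receptors and scavengers in each of the 14 samples (CPM, log axis); symbols mark the replicate number and lines the group mean. Ccr1 and Ccr2 were above the healthy range in all day 1 and day 3 samples, and Ackr4 was lowest at day 1, at 1.196 and 1.90 CPM, and below the healthy range in every injured sample.

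Of 13 other CC ligands, 12 passed the filter on low counts, and 1 was called against healthy at any time. That call was at day 3, where 7.19% of all genes tested were called. Ccl20, a ligand of Ccr6, was below 0.6 CPM in all healthy samples and at 2.68, 3.64, 1.58 and 2.34 CPM at day 3 (log2 fold change 3.15, adjusted p = 0.0188). The call was lost without healthy replicate 2, 3 or 4 (adjusted p up to 0.0553) and without both day 3 samples high in monocyte and neutrophil markers (2.76, adjusted p = 0.0577). At day 1 and day 7 none of the 12 was called by edgeR, with 3 and 0 at an unadjusted p under 0.05. DESeq2 called 3 and 0, and limma voom 2 and 1.

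Cytokines and signalling genes that act upstream of CC chemokines were followed as a list of 16, of which 15 passed the filter. Against healthy, 3 were higher at day 1, 3 higher and 1 lower at day 3, and 1 higher and 1 lower at day 7. Of all genes tested, 4.06%, 7.19% and 3.18% were called at days 1, 3 and 7. Tnf, a main inducer of Ccl2 in endothelium, was at 26.9, 35.6, 25.9 and 42.6 CPM in healthy LSECs, at 124 and 65.8 CPM at day 1, at 332, 209, 169 and 195 CPM at day 3 and at 67.2, 100.4, 60.4 and 66.0 CPM at day 7. All injured samples lay above all healthy ones. Its log2 fold changes were 1.54 (adjusted p = 0.0154), 2.79 (adjusted p = 0.000607) and 1.17 (adjusted p = 0.0394). The day 3 call was kept in all 14 fits without 1 sample and without both day 3 samples high in monocyte and neutrophil markers (2.44, adjusted p = 0.00189). The day 1 call was lost without day 1 replicate 1 (0.97, adjusted p = 0.53), and the day 7 call was lost without healthy replicate 1, 2 or 3 or day 7 replicate 2, 3 or 4 (adjusted p up to 0.135).

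The receptors Il1r1 (log2 fold change 1.15, adjusted p = 0.0203) and Il4ra (1.46, adjusted p = 0.00793) were higher at day 1, and both calls were lost without day 1 replicate 1 (adjusted p = 0.499 and 0.328). Nfkbia (1.42, adjusted p = 0.0374) and Tnfaip3 (0.90, adjusted p = 0.038), inhibitors that NF-kB itself induces, were higher at day 3. Neither was called without both day 3 samples high in monocyte and neutrophil markers, where Nfkbia stood at 0.39 (adjusted p = 0.332) and Tnfaip3 at 0.89 (adjusted p = 0.0637). Il1a, which healthy LSEC samples held at 1333 to 2768 CPM, was lower at day 3 (-1.06, adjusted p = 0.0373) and day 7 (-1.29, adjusted p = 0.0279). Without both day 3 samples high in monocyte and neutrophil markers, its day 3 value was -1.06 and not called (adjusted p = 0.0796). Leaving out 1 sample also ended these calls in part: that of Nfkbia was kept in 5 of 14 fits, that of Tnfaip3 in 3, and those of Il1a in 10 at either day. The signals of this list thus went in both directions, and the members' levels were not tested against them.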

How the data were processed

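RNA of sorted LSECs from 14 samples was sequenced in bulk. The authors deposited 1 table of whole-number read counts per Ensembl gene, with no normalization. Per the study's methods and the submitters' processing notes, reads were trimmed, mapped with STAR to the mouse genome GRCm38 and assembled with StringTie, with no versions given. The annotation and the use of strand in counting are not given in the sources used here. Every sample column was used (0 left out). Of 54524 genes, 54495 had a name in GENCODE vM21.

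Samples were grouped by the labelled time point. Counts were tested with edgeR 4.0.16 in R 4.3.3 by the quasi-likelihood test on all 14 samples with 4 group means and TMM scaling, after filterByExpr (minimum count 10, minimum total 15), which left 26626 genes. P-values were adjusted by Benjamini-Hochberg over all of them, and an adjusted p under 0.05 counted as a call. CPM used the TMM-scaled library size, and intervals are 95%. Correlations used log2 CPM with a prior count of 2. The scripts were tested on simulated data.

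The 10 members and the gene lists were chosen with earlier results of these data known. By the rule for named genes, every member is described, together with called genes and members' receptors among the other ligands, receptors and upstream signals and the 2 protein-coding genes most like each member (mean CPM of at least 1). The same rule asked for values of called marker genes, and those lists are instead given by counts and sums. Alternatives were other scalings and filters, DESeq2 1.42.0, limma 3.58.1 voom with quality weights, fits of 2 groups only, a replicate block and leaving out each sample. Counting error is small at totals of 46401496 to 103912264, and the spread between samples sets the precision. The study's own comparisons were not used. A receptor gene of the list is not reported here.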

Additional observations from a re-analysis of the deposited data

Results flagged for a closer look

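Of 30 sets of values tested (the 10 members in each of the 3 groups with 4 samples), 1 held a sample far from the others. Ccl25 in healthy replicate 4 was at 6.66 CPM, while the other healthy samples were at 1.86, 1.68 and 2.04 CPM. Its gap to the nearest of them was 0.928 of the whole range, above Dixon's critical value for 4 samples. Chance alone marks about 1 in 20 groups. The same sample had the highest sum of hepatocyte markers, 5977 CPM, and the relation of the 2 values was not tested.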

How the results depend on the processing

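The 4 groups share replicate numbers, but the numbers did not pair the samples: the 18 same-number pairs had correlations of deviations from -0.232 to 0.0962, none over 0.1. With the replicate block the calls were 0 at day 1, 2 at day 3 and 0 at day 7 against healthy, 1 for day 7 against day 3, 0 for day 7 against day 1 and 2 across the groups. With limma voom they were 4, 8 and 4 against healthy, 3 for day 3 against day 1, 6 for day 7 against day 3, 2 for day 7 against day 1 and 8 across the groups. DESeq2 called 2, 6 and 2 against healthy at days 1, 3 and 7 (adding Ccl3 and Ccl7 at day 3 and Ccl6 at day 7), 4 for day 7 against day 3 (adding Ccl12) and 6 across the groups. With RLE size factors or library size only, day 7 against day 1 had 0. With only the 2 groups compared, the calls were 2 at day 3 and 4 at day 7 against healthy, 0 for day 7 against day 3 and 3 for day 7 against day 1. Without both day 3 libraries high in monocyte and neutrophil markers (chosen after seeing the data) they were 2 at day 7 against healthy, 2 for day 3 against day 1, 1 for day 7 against day 3 and 2 for day 7 against day 1. Leaving out 1 sample gave 0 to 3, 2 to 6 and 0 to 2 against healthy at days 1, 3 and 7, 0 throughout for day 3 against day 1, 0 to 4 for day 7 against day 3, 0 to 2 for day 7 against day 1 and 3 to 7 across the groups. The causes were not tested.

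Only values that were not called turned in direction. Ccl5 at day 3 had log2 fold changes of -0.057 with library size only, -0.18 with no filter, -0.0005 with at least 10 counts in every sample, -0.088 with 2 groups, -0.33 with the block, -1.03 to 0.32 without 1 sample and -2.75 without both day 3 libraries. Ccl24 at day 3 had -0.14 with no filter, -0.056 with 2 groups, -0.14 with the block, -0.39 to 0.29 without 1 sample and -1.39 without both libraries. Ccl3 at day 7 had -0.047 with no filter, -0.18 with limma and -0.27 to 0.33 without 1 sample. At day 1, Ccl7 had -0.20 with the block and -0.51 to 0.70 without 1 sample, Ccl12 -1.53 to 0.67 and Ccl24 -0.23 to 0.91. Between days 3 and 1, without both libraries, Ccl2 had -0.25 and Ccl4 -0.089. Of 11 called values, 99 of 154 refits without 1 sample and 77 of 99 others kept direction and call, and the rest kept the direction.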
